A study of Danio rerio with 6 samples.

Results

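Heat shock proteins and chaperones were followed in regenerating zebrafish hearts with and without tbx20 overexpression. The genes were taken by symbol from the 31701 genes of the deposited table: every symbol that starts with hsp, dnaj, or cct and a digit, together with cryaba, cryabb and tcp1. This gave 92 genes, of which 11 are small heat shock genes (the hspb genes and the alpha B-crystallins cryaba and cryabb), 20 are large heat shock genes, 50 are co-chaperone genes of the dnaj family and 8 encode subunits of the cytosolic chaperonin. The remaining 3 were kept outside these 4 classes: hspg2 encodes a proteoglycan, and hspbp1 and hspbap1 encode binding partners of heat shock proteins. A further 4 rows with capital-letter symbols of the same kind lie outside the rule and were not used.

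RNA was sequenced from the apical part of the ventricle of adult zebrafish of strain AB at 7 days post amputation (dpa), in 3 control and 3 tbx20-overexpressing samples. The control genotype was the TRE3G:tbx20 responder by itself, with a lens EGFP marker. Fish that overexpress tbx20 had the same responder and a cmlc2:TetON-3G driver with a lens mCherry marker, and the cmlc2 promoter restricts the driver to cardiomyocytes (CMs). All fish, controls included, received doxycycline (DOX) daily from the day before resection. Each sample pooled the apices of several hearts, 6 in replicate 1 and 8 in replicates 2 and 3 of both groups, so a value is an average over fish and over the cell types of the tissue, and fewer cells of a type cannot be told apart from less RNA per cell.

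Chaperones bind unfolded or partly folded proteins and help them to fold, to assemble or to be degraded. Small heat shock proteins hold misfolding proteins without using ATP and are abundant in muscle, where they associate with sarcomeres and the cytoskeleton, while HSP70 and HSP90 proteins fold clients in ATP-driven cycles. J-domain proteins, encoded by the dnaj genes, bring clients to HSP70 and start its ATPase, and the ring-shaped chaperonin CCT folds actin and tubulin. Many of these genes are kept on in every cell, whereas others are induced within minutes to hours of heat or other stress through heat shock factors.

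The libraries held 13218054 to 17754483 counts in control and 12993988 to 14002211 counts in tbx20-overexpressing hearts. The 92 genes took 1.27 to 1.38% of the counts in control libraries and 1.20 to 1.78% in tbx20-overexpressing ones. Summed FPKM of the cardiomyocyte markers lay between 28436 and 37896 in control and between 18761 and 27139 in tbx20-overexpressing libraries, without overlap. Of these markers 3 of 8 were called lower, as were 2 of 5 of skeletal muscle and 2 of 6 of endothelium and endocardium. Called higher were 2 of 7 of epicardium and fibroblasts, 1 of 5 of macrophages and 1 of 2 of lens. Neutrophil and erythrocyte markers had 0 called. Of all genes tested 5.56% were called lower and 3.27% higher. Mitochondrially encoded genes took 16.3 to 20.9% of the counts in control and 11.1 to 15.0% in tbx20-overexpressing libraries. Counts of tbx20 itself, given as TMM-normalized CPM, that is, relative to the scaled total count of the library, were 41.3, 8.59 and 20.3 in control replicates 1, 2 and 3, and 133, 19.0 and 37.2 in tbx20-overexpressing replicates 1, 2 and 3. The groups overlapped, since tbx20-overexpressing replicate 2 lay under control replicates 1 and 3. In each of the 3 pairs of equal replicate number the tbx20-overexpressing library was higher. The log2 fold change of tbx20 was 1.43, with a standard error (SE) of 0.75 and an edgeR adjusted p = 0.649, and 1.24 (SE 0.19, edgeR adjusted p = 0.0479) with the replicate number as a block, with adjusted p between 0.0239 and 1 over the alternatives. In 9 genes of the module, among them the stress-inducible HSP70 genes, replicate 1 was highest and replicate 3 lowest by CPM in both groups, as given further on.

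Levels across genes were compared in FPKM, which divides by the exonic length. The most abundant genes were hspb7, a small heat shock gene of cardiac and skeletal muscle, at 1151 FPKM over the 6 libraries, and hspb11 at 1147 FPKM. They were followed by hspa8, the constitutive cytosolic HSP70, at 833 FPKM, and hsp90ab1, the constitutive cytosolic HSP90, at 806 FPKM. With hspb1 (548 FPKM) and hspb6 (400 FPKM), these were the 6 highest of 12 genes with a mean above 100 FPKM. Per length, the small heat shock genes held 50.7% of the summed FPKM of all 92 genes in control hearts, the large ones 29.3%, the chaperonin 11.8% and the dnaj genes 8.10%. No dnaj gene passed 100 FPKM, and the highest was dnaja2, a cytosolic partner of HSP70, at 77.8 FPKM. The low end held genes with almost no reads: 6 genes (cryaba, hspb15, hspa4l, dnajb13, dnajc22 and dnajc5b) had at most 5 counts in any library and were not tested, which left 86. Among them, the lens crystallin gene cryaba had 3 counts in 1 control library and 0 in the other 5.

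**Figure D1:**
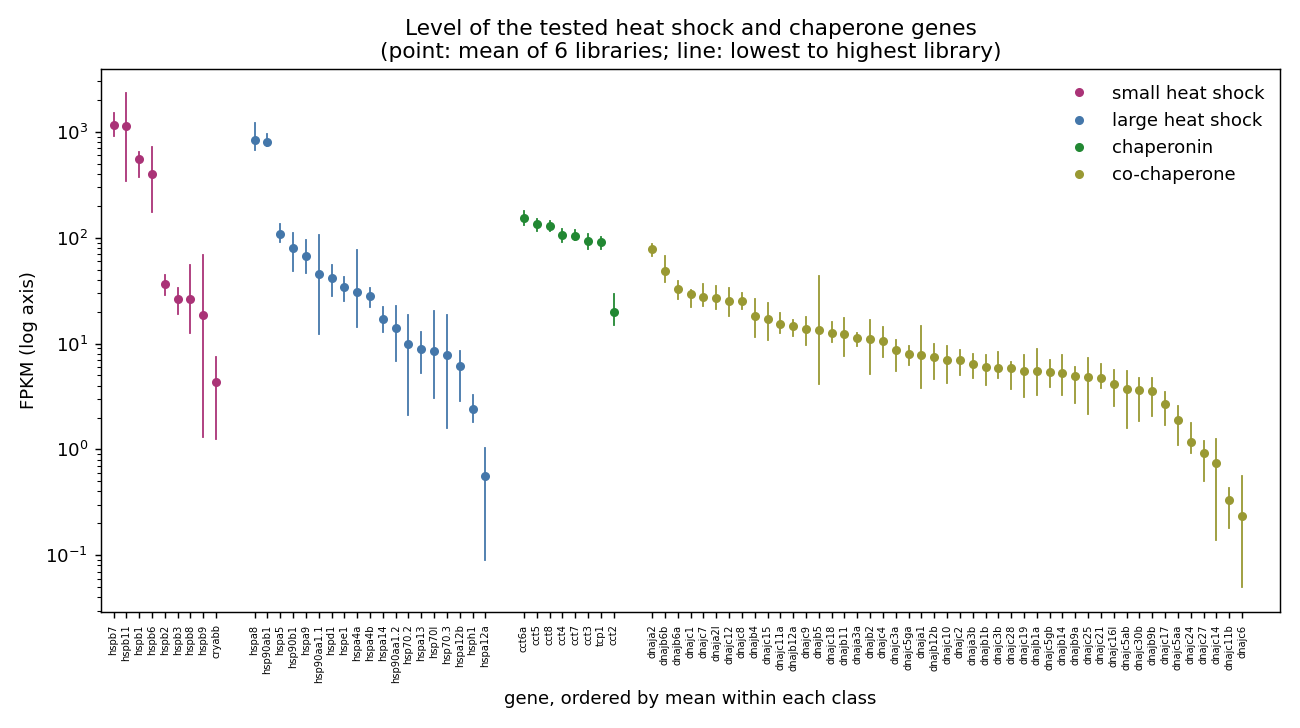
Mean FPKM (log axis) of each tested gene over the 6 libraries, with a line from the lowest to the highest library, by class. The small heat shock genes hspb7 and hspb11 and the large genes hspa8 and hsp90ab1 lie highest, 7 of the 8 chaperonin subunits lie between 90.9 and 152 FPKM, and the lines are long in hspb9 and dnajb5 and short in the chaperonin.

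The question of the design was which of these genes change when tbx20 is raised in CMs during regeneration. A gene was called, by the rule of the study's Results, at an unadjusted p under 0.05 and a log2 fold change above 0.5 in size, from edgeR's quasi-likelihood test on the counts of all 15686 genes tested. Of the 86 genes tested, 3 were called higher and 9 lower in tbx20-overexpressing hearts, beside 3.27% of all genes called higher and 5.56% called lower. The shares among the 86 were 3.49% and 10.5%. None passed an adjusted p under 0.05 in edgeR (0 of 86), and neither did any gene of the whole table (0 of 15686). An unadjusted p under 0.05 was reached by 12 of the 86, beside 1448 of all genes. DESeq2 also gave 0 genes of the module at an adjusted p under 0.05, beside 207 of 24691 genes tested. With the replicate number as a block, 3 were called higher and 11 lower, beside 6.05% and 8.06% of all genes, and 1 gene, dnajc15, passed an adjusted p under 0.05, which 0.536% of all genes did. The groups did not overlap in 13 of the 86 genes (15.1%), 11 of them lower and 2 higher, beside 14.7% of all genes. Leaving out 1 library moved the number called lower to between 2, without control replicate 2 or tbx20-overexpressing replicate 3, and 15, without tbx20-overexpressing replicate 1. Over all genes, the same fits called 664, 695 and 1016 lower. Median log2 fold changes were -0.14 for the 86 genes and 0.04 for all genes. Under scaling by total counts the median of all genes moved to 0.38 and that of the 86 to 0.20, so the number of the 86 genes below 0 went from 52 to 23, and calls among them went to 5 higher and 2 lower, with 1843 higher and 257 lower among all genes.

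**Figure D2:**
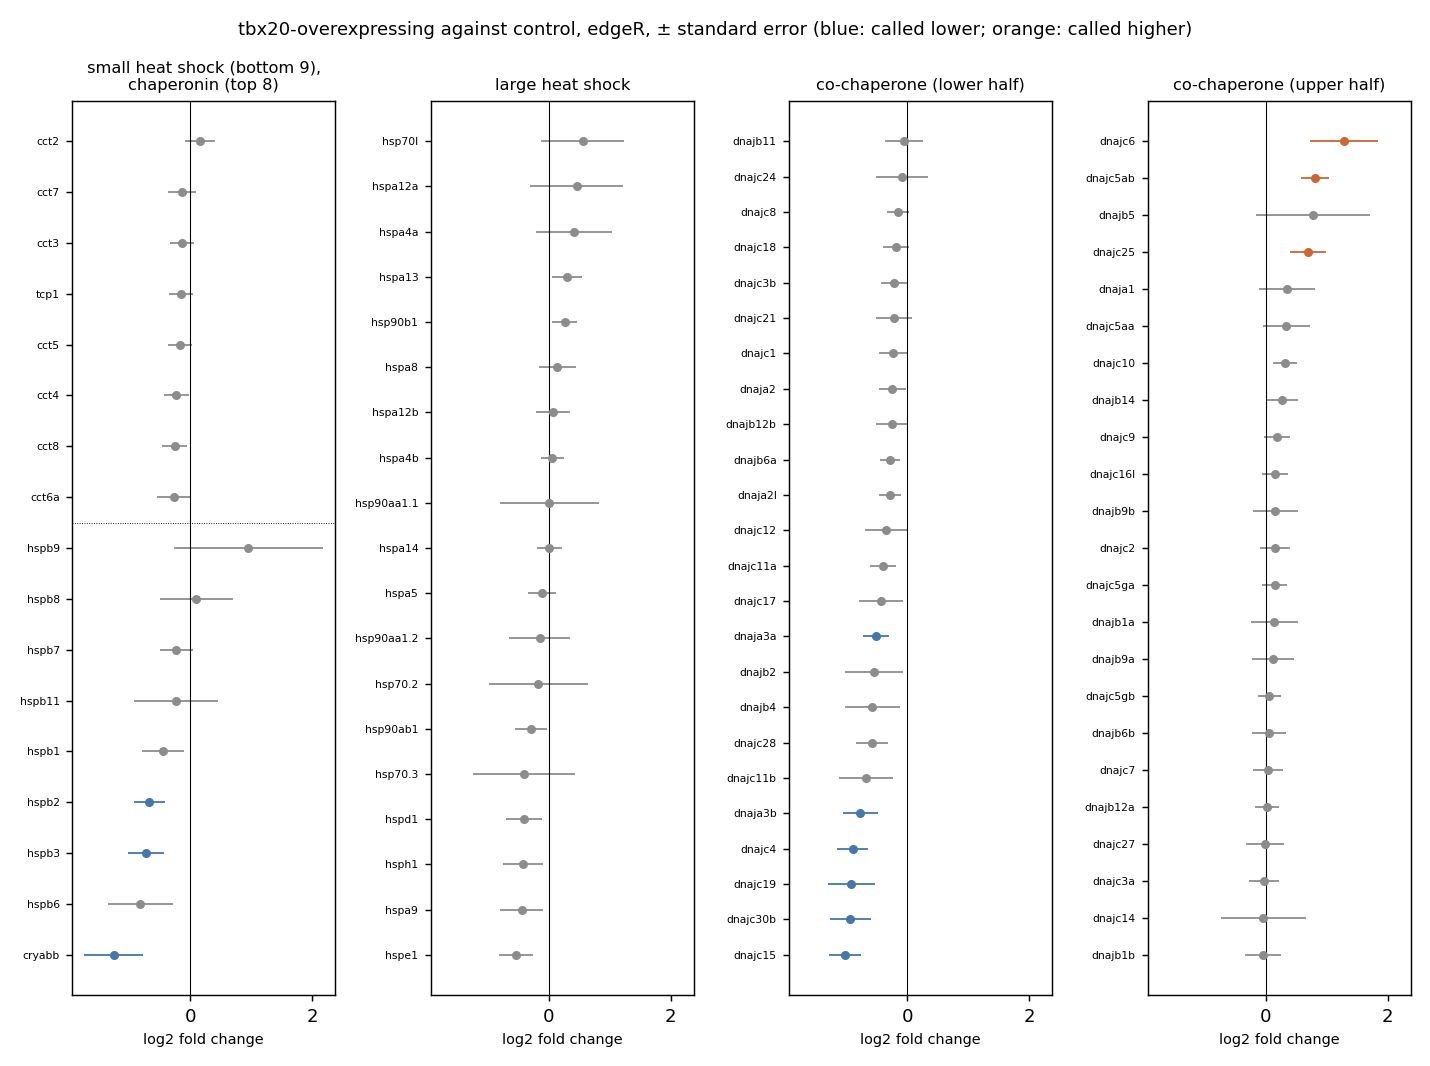
Log2 fold change of tbx20-overexpressing against control for each tested gene of the 4 classes, with its standard error (edgeR, 3 against 3 libraries, no block). The 9 genes called lower (blue) are 3 small heat shock and 6 dnaj genes, the 3 called higher (orange) are dnaj genes, and no large heat shock or chaperonin gene was called.

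Among the small heat shock genes, 3 of 9 tested were called lower and 0 higher, beside 5.56% and 3.27% of all genes. Mean levels of the 3 were 4.37 FPKM in cryabb, 26.5 FPKM in hspb3 and 36.8 FPKM in hspb2. The lowest fold change was that of cryabb (ENSDARG00000101380), one of the zebrafish alpha B-crystallins, a class that in mammals guards desmin and other filaments of heart muscle. Its CPM values were 21.6, 17.8 and 12.3 in control replicates 1 to 3 and 12.7, 3.05 and 5.84 in tbx20-overexpressing replicates 1 to 3. Every pair was lower, although the groups overlapped by 1 library, tbx20-overexpressing replicate 1. The log2 fold change was -1.26 (SE 0.48, edgeR adjusted p = 0.463), and -1.41 (SE 0.33, edgeR adjusted p = 0.0861) with the block.

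Beside cryabb on chromosome 5 lies hspb2, its neighbour also in the gene order of the GRCz12tu assembly, a muscle gene whose product in mammals binds that of hspb3. Its CPM values were 38.5, 44.3 and 28.6 in control, against 28.6, 24.1 and 17.3 in tbx20-overexpressing hearts. No tbx20-overexpressing library exceeded a control one in CPM (exact permutation test, two-sided, p = 0.1, the smallest that 3 against 3 can give). The gap was narrow, with 28.56 CPM in tbx20-overexpressing replicate 1 and 28.61 CPM in control replicate 3. In FPKM these libraries held 36.75 and 36.32, so there the groups overlapped. Its log2 fold change was -0.67 (SE 0.25, edgeR adjusted p = 0.460; with the block -0.68, SE 0.16, adjusted p = 0.0878). For hspb3 the values were 12.4, 19.0 and 15.2 CPM in control, against 12.9, 8.03 and 7.32 CPM in tbx20-overexpressing hearts. Here pair 1 did not differ in the same direction (0.05 on the log2 scale), and pairs 2 and 3 did, with -1.19 and -1.01. The log2 fold change of hspb3 was -0.72 (SE 0.29, edgeR adjusted p = 0.491; -0.75 with the block). Each of these calls was made in 2 of 6 fits with 1 library removed. Those of cryabb and hspb2 held without control replicate 3 (-1.45 and -0.83) and without tbx20-overexpressing replicate 1 (-1.95 and -0.85), and that of hspb3 held without control replicate 1 (-0.86) and without tbx20-overexpressing replicate 1 (-1.02). The call was lost for cryabb, at -0.90 to -1.25, without control replicate 1 or 2 or tbx20-overexpressing replicate 2 or 3. Leaving out the same 4 libraries ended that of hspb2, at -0.50 to -0.70, and leaving out control replicate 2 or 3 or tbx20-overexpressing replicate 2 or 3 that of hspb3, at -0.56 to -0.74.

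The abundant small heat shock genes were not called. In hspb7, whose product binds actin filaments in mouse heart muscle, control replicates held 1360, 1300 and 1309 CPM and tbx20-overexpressing replicates 1548, 948 and 896 CPM. The controls were alike, and the tbx20-overexpressing libraries lay on both sides of them, with a log2 fold change of -0.23 (SE 0.27, edgeR adjusted p = 0.905). In hspb6, the gene of HSP20, the values were 749, 2012 and 735 CPM in control, against 974, 724 and 283 CPM in tbx20-overexpressing hearts. Control replicate 2 alone was high here. The log2 fold change of hspb6 was -0.82 (SE 0.53, edgeR adjusted p = 0.743) and without control replicate 2 it was -0.18. The gene hspb1, whose product binds actin, gave -0.44 (SE 0.34) from 922, 1445 and 900 CPM in control, against 1050, 875 and 474 CPM in tbx20-overexpressing hearts. Log2 fold changes of hspb11, hspb8 and hspb9 were -0.23, 0.10 and 0.95, with standard errors of 0.69, 0.60 and 1.23, since these genes differed more between replicates than between groups. Over the 9 genes the median was -0.44, and -0.11 under total-count scaling, under which 5 of the 9 lay below 0. Under TMM, cardiomyocyte and skeletal muscle markers had medians of -0.69 and -0.67, with 3 of 8 and 2 of 5 called lower. The part of these in the result was not tested.

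**Figure D3:**
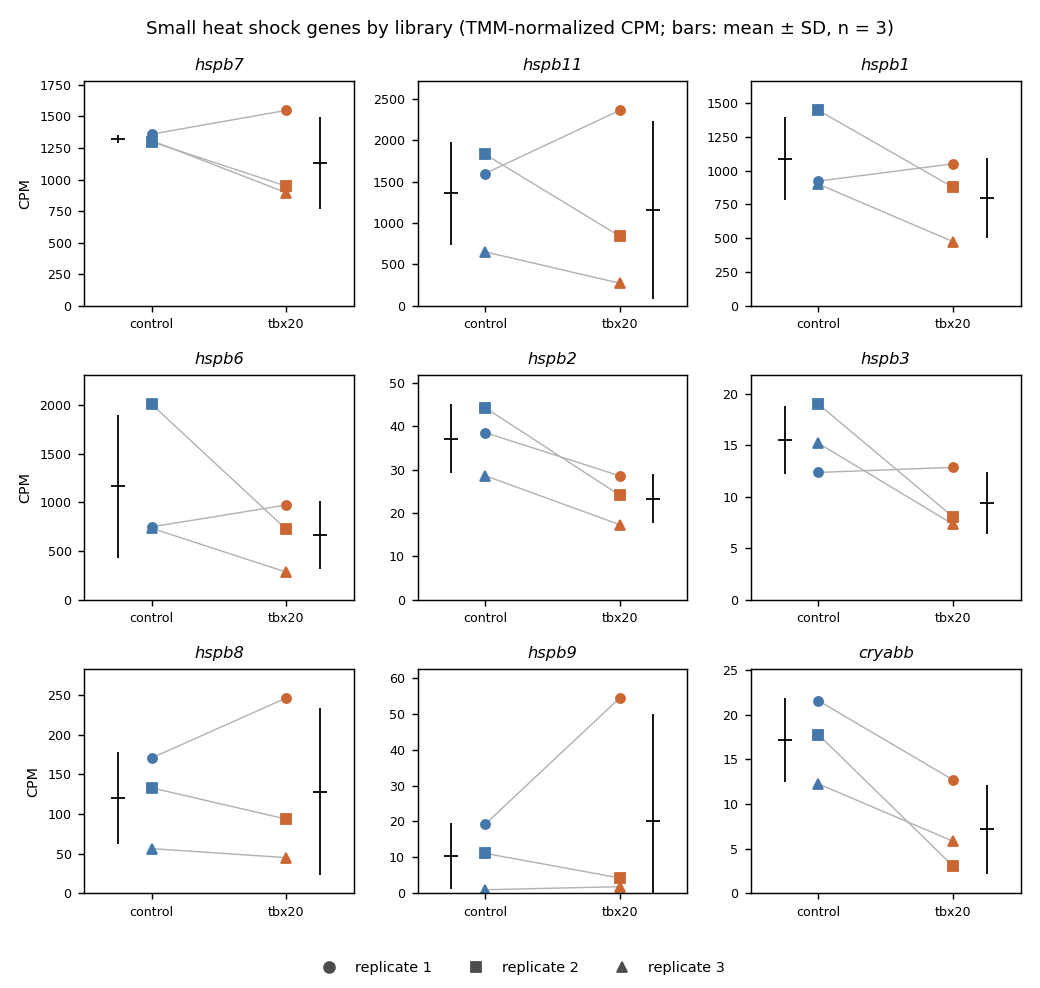
CPM of the 9 tested small heat shock genes in each library, with grey lines joining libraries of the same replicate number and bars for the mean ± SD (n = 3). In cryabb and hspb2 all 3 lines fall, while in hspb1, hspb6, hspb7, hspb8, hspb9 and hspb11 the line of replicate 1 rises and that of replicate 2 falls.

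Of the 19 large heat shock genes tested, 0 were called in either direction and 0 had an unadjusted p under 0.05; their median log2 fold change was 0.01. The constitutive cytosolic genes were not called. In hsp90ab1 the CPM values were 2914, 3706 and 2876 in control, against 2530.5, 3158 and 2114 in tbx20-overexpressing hearts, with a log2 fold change of -0.28 (SE 0.26). For hspa8 they were 1865, 2543 and 1726 CPM in control, against 3058, 2060 and 1646 CPM in tbx20-overexpressing hearts, which gave a log2 fold change of 0.14 (SE 0.31). In both genes the groups overlapped.

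The chaperones of the endoplasmic reticulum (ER), hspa5 (BiP) and hsp90b1 (GRP94), gave log2 fold changes of -0.11 (SE 0.23) and 0.27 (SE 0.21). For hspa5 the control mean was 264 ± 20.3 CPM and the tbx20-overexpressing mean 244 ± 58.9 CPM (SD, n = 3 each). For hsp90b1 they were 194 ± 27.7 and 234 ± 28.0 CPM (SD, n = 3 each), and all 3 pairs were higher. Neither gene was called.

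The mitochondrial members of the class lay near the low end of its fold changes. They are hspa9 (mortalin), the HSP70 of the matrix that also pulls in imported proteins, and hspd1 and hspe1, the HSP60 and HSP10 that form the mitochondrial chaperonin and are neighbours on chromosome 9 in the GRCz12tu order. Values of hspe1 were 73.2, 90.3 and 63.2 CPM in control, against 75.2, 42.7 and 39.0 CPM in tbx20-overexpressing hearts. Pair 1 was level and pairs 2 and 3 were lower by 1.07 and 0.69 on the log2 scale. Its log2 fold change was -0.53 (SE 0.28, edgeR adjusted p = 0.660), and -0.58 (SE 0.22, edgeR adjusted p = 0.234) with the block, which called it lower. In hspd1 the values were 151, 136 and 129 CPM in control, against 157, 74.7 and 81.9 CPM in tbx20-overexpressing hearts, again with only pair 1 level, and the log2 fold change was -0.41 (SE 0.29). For hspa9 pair 1 was higher by 0.21 on the log2 scale and pairs 2 and 3 were lower, at 379, 435 and 311 CPM in control, against 437, 225 and 165 CPM in tbx20-overexpressing hearts, with a log2 fold change of -0.44 (SE 0.36). Without tbx20-overexpressing replicate 1, hspe1, hspa9 and hspd1 were all called lower, at -0.89, -0.95 and -0.83. Each was called in only 1 of the 6 fits with 1 library removed, and the other fits reached -0.36, -0.18 and -0.22. Without tbx20-overexpressing replicate 1, 15 of the 86 genes were called lower, beside 1016 of 16069 genes over all.

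The 9 genes called among the 47 tested dnaj genes were 3 called higher (6.38%) and 6 called lower (12.8%), beside 3.27% and 5.56% of all genes. All 6 called lower belong to a set of 9 whose human counterparts are mitochondrial proteins, which was put together after the values were seen: dnaja3a, dnaja3b, dnajc4, dnajc11a, dnajc11b, dnajc15, dnajc19, dnajc28 and dnajc30b. All 9 had a log2 fold change below 0, from -1.02 to -0.39 with a median of -0.77. Under total-count scaling all 9 also lay below 0, but closer to it, from -0.68 in dnajc15 to -0.07 in dnajc11a with a median of -0.42. By TMM-normalized CPM, every pair was lower in 8 of the 9, the exception being dnajc11a, and in 7 the groups did not overlap. Of all 15686 genes, 2952 were lower in every pair by this measure, and 1297 were lower with groups that did not overlap. In FPKM, which keeps total-count scaling, the groups overlapped in dnaja3a, dnaja3b, dnajc28 and dnajc30b, and stayed apart in dnajc15, dnajc4 and dnajc19. A pair that was lower in CPM was higher in FPKM in dnaja3b, dnajc11b, dnajc28 and dnajc30b. Among the other 38 dnaj genes, 3 were called higher and 0 lower, and the median was 0.01. Since the set was made with the values known, these counts are a description.

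Called most often was dnajc15, whose human counterpart sits at the inner membrane beside the import motor. It had 44.1, 45.4 and 31.2 CPM in control, against 22.5, 23.2 and 14.0 CPM in tbx20-overexpressing hearts. Every tbx20-overexpressing library was lower than every control one, and the 3 pairs differed by -0.96, -0.95 and -1.13 on the log2 scale. The log2 fold change was -1.02 (SE 0.26, edgeR adjusted p = 0.296), and -1.03 (SE 0.15, edgeR adjusted p = 0.0469) with the block, with adjusted p between 0.0469 and 0.753 over the alternatives. It was called under all 20 alternatives run, with log2 fold changes from -1.17 to -0.64.

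Next was dnajc4, at 34.1, 56.1 and 36.1 CPM in control, against 21.1, 26.9 and 19.8 CPM in tbx20-overexpressing hearts, again without overlap. Its log2 fold change was -0.89 (SE 0.25, edgeR adjusted p = 0.334; with the block -0.87, adjusted p = 0.0604), and it was called in 18 of 20 alternatives. The gene dnajc19, whose human counterpart is a J-protein of the import motor linked to dilated cardiomyopathy with ataxia, had 6.01, 10.02 and 5.91 CPM in control, against 4.21, 5.11 and 2.30 CPM in tbx20-overexpressing hearts. Its log2 fold change was -0.92 (SE 0.38, edgeR adjusted p = 0.514), and -0.63 without control replicate 2, where it was not called. In dnajc30b the values were 8.73, 9.12 and 7.34 CPM in control, against 3.07, 6.50 and 3.60 CPM in tbx20-overexpressing hearts, which gave a log2 fold change of -0.93 (SE 0.34, edgeR adjusted p = 0.431).

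Both copies of dnaja3, the mitochondrial partner of mortalin known in mammals as Tid1, were called lower. The copy dnaja3b had 14.2, 22.9 and 16.4 CPM in control, against 13.6, 10.2 and 7.67 CPM in tbx20-overexpressing hearts, which gave a log2 fold change of -0.77 (SE 0.29). The copy dnaja3a had 39.5, 42.1 and 36.1 CPM in control, against 34.5, 25.5 and 22.8 CPM in tbx20-overexpressing hearts, which gave a log2 fold change of -0.51 (SE 0.21). Neither pair of groups overlapped in CPM, although both did in FPKM. The copy dnaja3a lay just past 0.5 and was called in 6 of 20 alternatives. Leaving out 1 library ended the call of dnaja3a in every case but that of tbx20-overexpressing replicate 1, at -0.39 to -0.56. That of dnaja3b was lost without control replicate 2 (-0.56) and without tbx20-overexpressing replicate 2 (-0.75) or 3 (-0.58). That of dnajc19 was lost without control replicate 2 or tbx20-overexpressing replicate 1 (-0.98) or 3 (-0.65), and that of dnajc30b, at -0.74 to -0.90, without any library but control replicate 3 and tbx20-overexpressing replicate 2. The block also called dnajc28 lower, at -0.60 (SE 0.22, edgeR adjusted p = 0.209), against -0.58 (SE 0.26) without it. Cardiomyocyte markers, with a median log2 fold change of -0.69, and the share of mitochondrially encoded counts moved in the same direction as these 9 genes, and their part in the result was not tested.

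**Figure D4:**
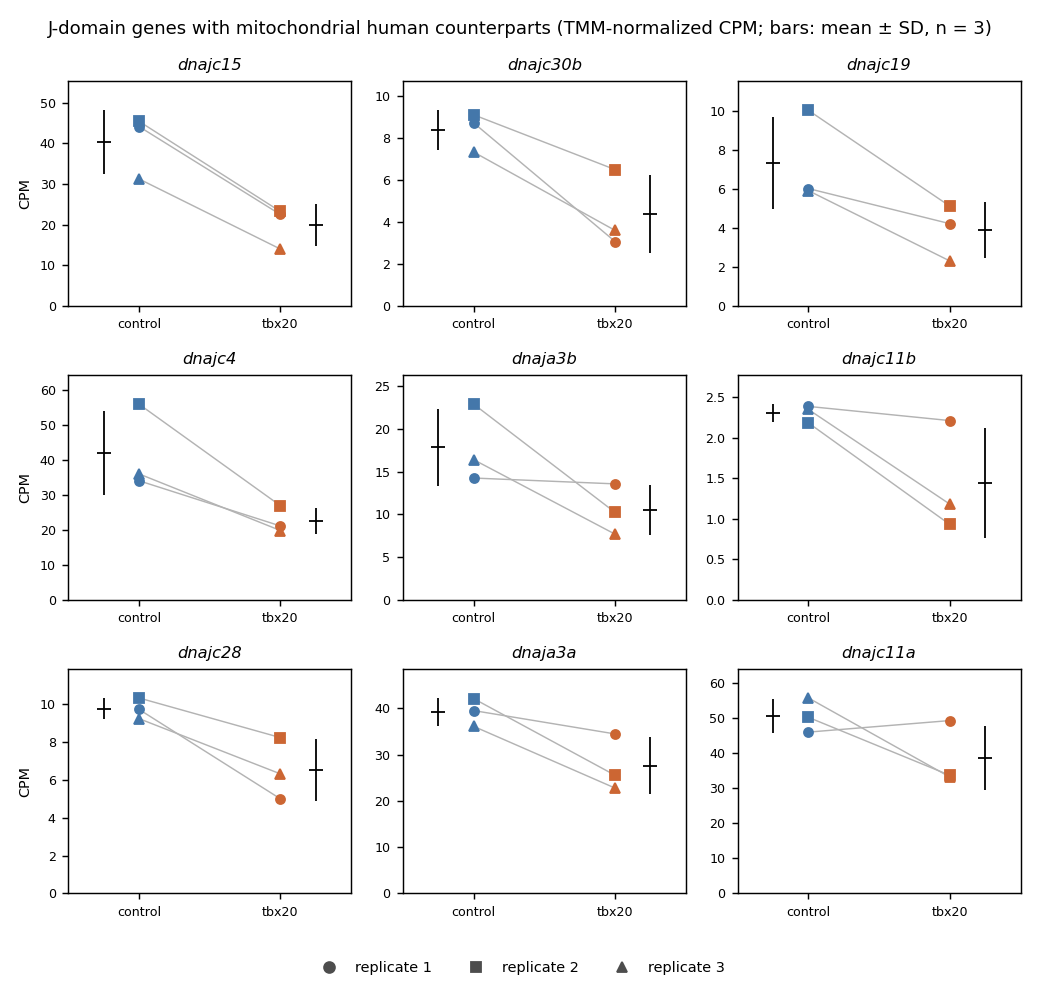
CPM of the 9 dnaj genes with mitochondrial human counterparts in each library, with grey lines joining libraries of the same replicate number and bars for the mean ± SD (n = 3). Of the lines, only that of replicate 1 in dnajc11a rises.

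The 3 dnaj genes called higher were dnajc5ab, dnajc25 and dnajc6. In dnajc5ab, a copy of the gene of cysteine string protein, which guards vesicle fusion proteins at synapses, the values were 15.0, 10.92 and 13.8 CPM in control, against 27.8, 21.3 and 20.6 CPM in tbx20-overexpressing hearts. All 3 tbx20-overexpressing libraries exceeded all 3 control ones. The log2 fold change was 0.81 (SE 0.23, edgeR adjusted p = 0.332; with the block 0.81, SE 0.17, adjusted p = 0.0713), and the gene was called under all 20 alternatives, with adjusted p from 0.0448 to 0.823. The gene dnajc25, at 6.01, 4.07 and 4.76 CPM in control, against 10.1, 6.44 and 7.43 CPM in tbx20-overexpressing hearts, also did not overlap. Its log2 fold change was 0.69 (SE 0.29, edgeR adjusted p = 0.522), and the call held without control replicate 1 (0.86) or tbx20-overexpressing replicate 2 (0.82) and was lost without each of the other 4 libraries (0.49 to 0.73). The gene dnajc6, whose product auxilin strips clathrin from vesicles, was near the floor, with 7 to 23 counts per control library and 15 to 54 per tbx20-overexpressing library. Its CPM values of 0.91, 0.53 and 1.32 in control, against 1.07, 2.52 and 3.19 in tbx20-overexpressing hearts overlapped, and its log2 fold change was 1.28 (SE 0.55, edgeR adjusted p = 0.532), called in 11 of 19 alternatives. Its call held without control replicate 3 (1.66) and tbx20-overexpressing replicate 1 (1.61) and was lost without each of the other 4 libraries (0.94 to 1.28). The most abundant dnaj genes were not called: dnaja2, dnajb6b, dnajb6a, dnajc1 and dnajc7 gave log2 fold changes of -0.25, 0.06, -0.28, -0.23 and 0.04, with standard errors of 0.17 to 0.28. Of these, only dnajb6a had groups that did not overlap, at 46.1, 48.3 and 53.1 CPM in control, against 43.2, 39.0 and 39.6 CPM in tbx20-overexpressing hearts.

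None of the 8 chaperonin genes was called (0 of 8, 0 with an unadjusted p under 0.05), and they were the tightest class. Log2 fold changes ran from -0.27 in cct6a to 0.16 in cct2, with a median of -0.16 and standard errors of 0.20 to 0.27, and 7 of the 8 lay below 0. Under total-count scaling all 8 lay above 0, from 0.08 to 0.53. The summed level of the 8 was 1684, 2127 and 1744 CPM in control, against 1762, 1703 and 1373 CPM in tbx20-overexpressing hearts, with overlap. Within groups, the SD of log2 CPM had a median of 0.18 over the 8 genes, beside 0.34 over all genes tested, 0.73 in small heat shock genes, 0.42 in large ones and 0.29 in dnaj genes. Expression of 7 subunits lay close together, between 90.9 FPKM in tcp1 and 152 FPKM in cct6a. The remaining subunit, cct2, stood at 19.6 FPKM, where the table gives it an exonic length of only 351 bases.

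The strongest pattern in the module followed the replicate number rather than the group. This was seen in the data first and then measured with an F test on the replicate number in the model that also holds the group (edgeR, counts of all 15686 genes). In 9 of the 86 genes (hspb8, hspb9, hsp70.2, hsp70.3, hsp70l, hsp90aa1.1, hsp90aa1.2, dnaja1 and dnajb5) the level differed between replicate numbers at an adjusted p under 0.05, beside 3.78% of all genes. By TMM-normalized CPM, all 9 were highest in replicate 1 and lowest in replicate 3 in control hearts, and likewise in tbx20-overexpressing hearts. In FPKM the order of hsp70.2 changed, with 13.64 in tbx20-overexpressing replicate 1 and 14.24 in replicate 2. That of hsp70l changed too, with 3.08 FPKM in control replicate 2 and 3.46 FPKM in control replicate 3. The list holds the zebrafish HSP70 genes that heat induces (hsp70.2, hsp70.3, hsp70l), the HSP90 genes hsp90aa1.1 and hsp90aa1.2, and dnaja1, a J-protein partner of HSP70. Other members of these families did not pass, among them hsph1, hspb1, dnajb1a and dnajb1b (edgeR adjusted p = 0.146, 0.257, 0.279 and 0.174). An unadjusted p under 0.05 in this test was reached by 25 of the 86, beside 3771 of all 15686 genes. Over all genes too, more passed the adjusted threshold for the replicate number (593) than for the group in the same model (84).

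The widest range was that of hspb9, at 19.2, 11.2 and 1.03 CPM in control replicates 1, 2 and 3 and 54.3, 4.31 and 1.89 CPM in tbx20-overexpressing replicates 1, 2 and 3. Replicate 1 exceeded replicate 3 by 3.68 on the log2 scale in control and by 4.52 in tbx20-overexpressing hearts, rank 6 of all genes tested by the mean of the differences. In hsp70.2 the values were 46.5, 23.2 and 4.87 CPM in control, against 30.8, 30.5 and 4.78 CPM in tbx20-overexpressing hearts. For hsp90aa1.1 they were 205, 147 and 41.9 CPM in control, against 289, 81.6 and 26.7 CPM in tbx20-overexpressing hearts. In each of these genes replicate 3 of both groups lay below the other 4 libraries.

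Values of dnajb5 were 22.2, 8.29 and 4.87 CPM in control, against 50.4, 6.37 and 3.84 CPM in tbx20-overexpressing hearts. Those of hsp70l were 30.2, 9.49 and 7.91 CPM in control, against 45.8, 15.7 and 8.56 CPM in tbx20-overexpressing hearts. Over the 9 genes, replicate 1 exceeded replicate 3 by 1.46 to 3.68 on the log2 scale in control and by 1.37 to 4.52 in tbx20-overexpressing hearts. Among the 20 tested genes with the largest mean difference of that kind, 5 were heat shock or chaperone genes of the module, and among the 100 largest 8 were. The module held 86 of the 15686 genes tested. The genes hsp70.2 and hsp70.3 are neighbours on chromosome 3 and hsp90aa1.1 and hsp90aa1.2 on chromosome 20 in the GRCz12tu order, and how reads shared by such near-identical copies were counted is not given in the sources used here, so the split within each pair is uncertain. Replicate 1 pooled 6 hearts and replicates 2 and 3 pooled 8, in both groups. The level of tbx20 itself also differed between replicate numbers (edgeR adjusted p = 0.0107), with replicate 1 highest and replicate 2 lowest in both groups. Neutrophil, erythrocyte and macrophage markers had medians of -1.71, -1.15 and -0.80 for replicate 1 minus replicate 3 on the log2 scale, and skeletal muscle and cardiomyocyte markers 1.28 and 0.57. The part of these in the pattern was not tested.

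None of the 9 genes was called between the groups (0 of 9, with 0 at an unadjusted p under 0.05), and their log2 fold changes ran from -0.41 in hsp70.3 to 0.95 in hspb9 with standard errors of 0.46 to 1.23. These genes were chosen for differences between replicate numbers, which count as spread within groups in the fit without the block, so that fit could call only large differences in them. With the block the standard errors were 0.15 to 0.52, and still 0 were called. The nearest was hsp70l, higher in 3 of 3 pairs, at 0.49 (SE 0.19, edgeR unadjusted p = 0.031, adjusted p = 0.233), just under 0.5. In pair 1, 6 of the 9 were higher in the tbx20-overexpressing library, in pair 2 it was 4 and in pair 3 it was 5. In hspb11 and hspa4a, which missed the adjusted threshold, replicate 1 exceeded replicate 3 by 1.29 and 1.17 on the log2 scale in control and by 3.10 and 2.39 in tbx20-overexpressing hearts, but replicate 2 was the highest control library.

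**Figure D5:**
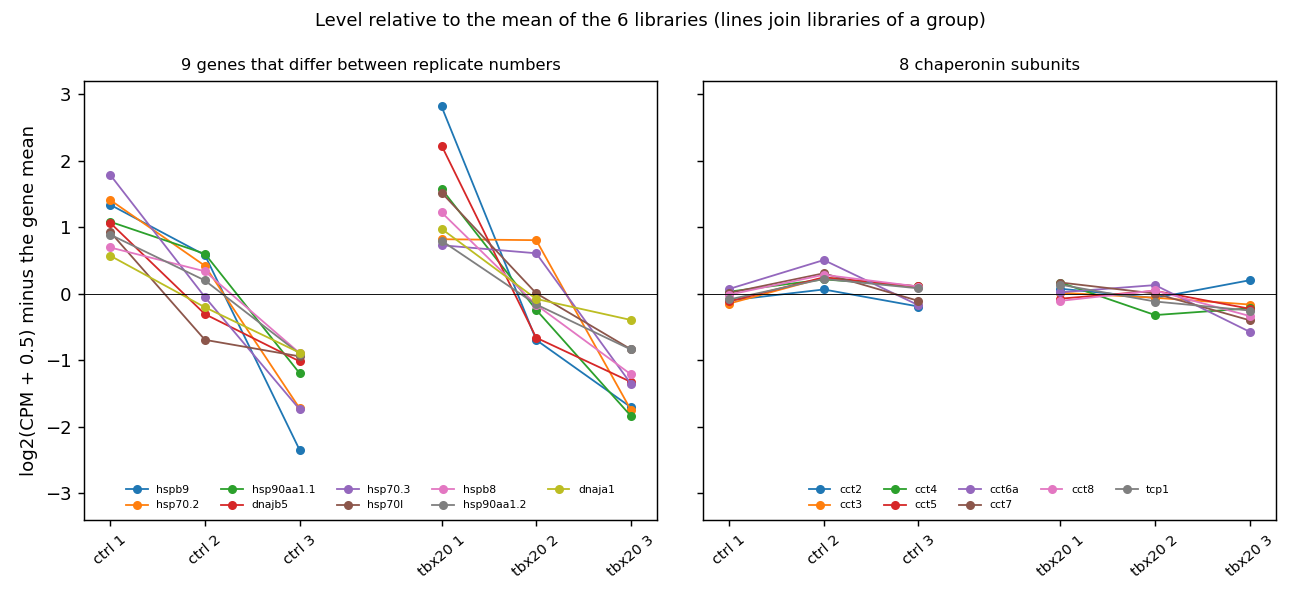
Level in each library as log2(CPM + 0.5) minus the mean of the gene over the 6 libraries, for the 9 genes that differ between replicate numbers (left) and the 8 chaperonin subunits (right); ctrl and tbx20 stand for control and tbx20-overexpressing replicates 1 to 3. On the left replicate 1 is highest and replicate 3 lowest in both groups, while on the right all points stay near 0.

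Other genes of the folding machinery were read from 6 lists of partners, with 79 of their 91 genes tested. Without the block 0 were called higher and 7 lower (8.86%), beside 3.27% and 5.56% of all genes. With it 3 were called higher (3.80%) and 11 lower (13.9%), beside 6.05% and 8.06% of all genes. Among 15 tested HSP90 co-chaperones 2 were called lower. The larger difference was in fkbp5, an immunophilin of steroid receptor complexes that glucocorticoids induce in mammals and fish, with 1178, 2122 and 832 CPM in control, against 659, 459 and 403 CPM in tbx20-overexpressing hearts. Its groups did not overlap and its log2 fold change was -1.44 (SE 0.38, edgeR adjusted p = 0.310). The activator of the HSP90 ATPase ahsa1a gave -0.84 (SE 0.22, edgeR adjusted p = 0.315), from 31.2, 29.9 and 22.0 CPM in control, against 16.3, 17.1 and 12.98 CPM in tbx20-overexpressing hearts. With the block smyd1b, a methyltransferase that acts with HSP90 on myosin in zebrafish muscle, was also called lower, at -0.60.

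In the list of mitochondrial protein quality control, 5 of 13 tested genes were called lower and 0 higher, beside 5.56% of all genes called lower, with a median log2 fold change of -0.41. Under total-count scaling the median was -0.02, beside 0.38 over all genes. Cardiomyocyte markers and the share of mitochondrially encoded counts were lower in the same libraries, and their part in the result was not tested. The 5 genes called lower were the mitochondrial HSP90 trap1 (-0.55), the protease subunits clpp (-0.64), clpxb (-0.52) and afg3l2 (-0.60), and timm44 (-0.58), which anchors mortalin to the import channel. In afg3l2 the values were 87.8, 89.7 and 89.1 CPM in control, against 52.7, 66.5 and 56.6 CPM in tbx20-overexpressing hearts, without overlap. With the block timm23a, a subunit of the import channel, was called lower (-0.59) and its paralog timm23b higher (0.81). The 26 tested genes of ER folding and stress had 0 called (0 with an unadjusted p under 0.05) and a median of 0.08, and the block called calr3b (0.54) and ern1 (0.53) higher. The lists of HSP70 partners (13 tested), prefoldin and CCT helpers (8 tested) and heat shock factors (4 tested) had 0 called, with 1, 0 and 0 at an unadjusted p under 0.05. In the first, the block called bag3, which joins HSPB8 to HSP70 in muscle, lower at -0.92 (SE 0.23, edgeR adjusted p = 0.0950), and bag2 at -0.56. Without the block bag3 gave -0.84 (SE 0.55). It also differed between replicate numbers (edgeR adjusted p = 0.0340), with replicate 3 lowest in both groups but replicate 2 the highest control library. The other listed gene that did so was hsf1 (edgeR adjusted p = 0.0450), with replicate 2 lowest in both groups. These were 2 of the 79 tested, beside 3.78% of all genes.

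The 3 genes kept outside the classes were not called. Their log2 fold changes were -0.46 in hspbap1, 0.25 in hspbp1 and 0.18 in hspg2, with standard errors of 0.33 to 0.38.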

How the data were processed

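The counts are whole reads per gene as the authors deposited them, not normalized; per the labels the reads were trimmed with Trimmomatic 0.30 and aligned to GRCz10 with HISAT2 2.0.1, and the counting tool, the strand and the handling of reads that map to several genes are not given in the sources used here. Deposited FPKM values divide the counts by exonic length and library total, since 190206 of 190206 equal the recomputed value within 0.0051. All 92 gene IDs matched the gene name table. The members, classes and lists were chosen with earlier results of these data known.

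Tests on the counts were run with edgeR 4.0.16 under R 4.3.3 (genes kept by filterByExpr, TMM factors 0.748 to 1.31, quasi-likelihood F test, two-sided, Benjamini-Hochberg adjustment over all 15686 genes). The standard error is the log2 fold change divided by the square root of F. The study's Methods name DESeq without a block and an adjusted p under 0.05, and its Results the unadjusted rule, so the main fit had no block. Genes named were those past the call rule in either fit, all tested small heat shock and chaperonin genes, the 5 of highest FPKM in each other class, and listed partners past the rule. The genes that differ between replicate numbers, hspd1, hspa4a, dnajc11a, dnajc11b and those outside the classes were added after their values were seen. For single genes an exact permutation test over samples was used. Marker lists of 8 cell types and the 6 lists of partners were described by counts and medians. The edgeR fits were tried on simulated counts with large planted changes and no differences between replicate numbers. That trial does not measure their error rate in these data.

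Equal replicate numbers were treated as pairs, which the sample titles and the study's text do not state. After subtraction of group means, same-numbered control and tbx20-overexpressing libraries correlated across genes at 0.474, 0.419 and 0.511. The block thus rests on a pairing read from these same data, and a fit with the block is given where it changes a call. Samples are separate pools of hearts per the labels, and no 2 libraries of a group were duplicates (chi-square per degree of freedom 41.0 to 71.3). Alternatives were the block, RLE, upper-quartile and total-count scaling, DESeq2 1.42.0 without shrinkage, no filter, at least 10 counts in every library, limma 3.58.1 on log2(FPKM + 1) and log2(FPKM + 0.1), removal of mitochondrially encoded genes, and each library left out. Leaving out both libraries of a replicate number, the block with total-count scaling, and the test of replicate numbers were chosen after seeing the data.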

Additional observations from a re-analysis of the deposited data

How the results depend on the processing

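Among all heat shock and chaperone genes, 3 were called higher and 9 lower. An adjusted p under 0.05 was reached by 0 of them and by 0 of all 15686 genes. The replicate block uses a pairing read from these same data. With it 1 gene, dnajc15, had an adjusted p under 0.05 in edgeR (0.0469), beside 84 of all genes. With the block and total-count scaling dnajc15 was lost (0.0726) and 1 other gene, dnajc5ab, passed (0.0448, against 0.0713 with the block under TMM). In that setting 401 of all genes passed. The block changed 2 further single calls (hspe1 and dnajc28). The genes called higher numbered 5 under total-count scaling, 5 with limma on log2(FPKM + 1), 6 with log2(FPKM + 0.1) and 13 with the block and total-count scaling. Those called lower numbered 2, 1, 1 and 3. Over all 15686 genes, 1843, 1488, 1695 and 3590 were called higher in these settings, and 257, 262, 295 and 409 lower. Each of these settings keeps total-count scaling, which TMM replaces. Leaving out 1 library gave 1 to 2 called higher and 2 to 15 called lower: 15 without tbx20-overexpressing replicate 1, 2 without control replicate 2 or tbx20-overexpressing replicate 3, and 5 without control replicate 1 or tbx20-overexpressing replicate 2. Over all genes, the same fits called 428 to 573 higher and 664 to 1016 lower, the 1016 without tbx20-overexpressing replicate 1. Leaving out both libraries of a number gave 1 to 2 called higher and 3 to 11 called lower, the 11 without replicate 1. Over all genes it gave 291 to 428 higher and 558 to 788 lower, the 788 without replicate 1. In the module, the genes that differ between replicate numbers were 17 with no filter on low counts, against 9 with it. With the filter 593 of all 15686 genes differed, and the number over all genes without it is not given here. Of the 12 genes called, dnajc15 and dnajc5ab were called in 20 of 20 alternatives, dnajc4 in 18 of 20 and the others in 6 to 11; no call changed direction. With 3 libraries a group the exact permutation test cannot go below p = 0.1, and genes such as dnajc6 rest on at most 54 counts per library.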

Other observations

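The 20 genes, among all genes tested, in which replicate 1 exceeded replicate 3 the most, over both groups, also held transcription factor genes of the immediate early and stress response. By the mean difference of the 2 groups on the log2 scale, f13a1a.1 was highest at 6.94, followed by F13A1 (1 of many) at 5.28. Of the transcription factor genes, nr4a3 stood at 5.07, npas4a at 4.17, atf3 at 4.17, fosb at 3.91 and fosl1a at 3.18. Beside them, hspb9 stood at 4.10 and hsp70.2 at 2.85. Others among the 20 were ACTC1 (1 of many) at 3.87, ankrd1a at 3.30 and xirp1 at 2.97. These genes were picked after their values were seen, and their values are given as a description with no test.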
